A study of Arabidopsis thaliana with 6 samples.

Results

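Photorespiration is the pathway by which plants recover carbon from phosphoglycolate, the product formed when Rubisco reacts with oxygen in place of carbon dioxide. The phosphate is removed in the chloroplast, glycolate is oxidised and transaminated to glycine in the peroxisome, glycine is converted to serine in the mitochondrion with release of carbon dioxide and ammonium, and serine returns through the peroxisome as glycerate, which the chloroplast phosphorylates for the Calvin cycle. In leaves its enzymes are among the more abundant proteins, and mutants that lack a major step typically grow poorly in normal air and recover in air enriched in carbon dioxide. The 10 genes described here encode enzymes of these steps and were chosen by gene identifier, and all 10 were among the 23640 features of the count table.

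The study sequenced RNA of Arabidopsis thaliana seedlings of ecotype Col, 14 days old and grown in vitro, in 3 libraries of atrx-1 plants, which the submitters call a loss-of-function line of the chromatin remodeler gene ATRX, and 3 libraries of wild-type plants (WT). Both groups were plantlets of the same age, and their total RNA had been depleted of ribosomal RNA. The lesion in atrx-1 was not given in the sources used here. No label says that replicates came from separate cultures, so the p-values cover only the variation among these 6 libraries, some or all of which could be technical. The libraries held 2887834 to 14001726 counts in atrx-1 and 936243 to 3624088 in WT, of which 1221874 to 5635498 and 371797 to 1510974 came from nuclear genes. ATRX itself had 18, 3 and 6 reads in atrx-1 libraries 1, 2 and 3 and 16, 5 and 18 reads in WT libraries 1, 2 and 3, which is 1.24, 0.721 and 1.91 CPM against 4.82, 5.46 and 5.86 CPM (counts scaled to a common library size after TMM normalisation). The groups did not overlap, and the log2 fold change of ATRX was -2.09 ± 0.38 (SE; edgeR adjusted p = 0.0536). All 6 green-tissue markers were detected. Root markers summed to 1081 to 1349 CPM in atrx-1 and 1251 to 1855 CPM in WT. Most of each root sum came from PYK10, at 1040.5 to 1280.9 CPM in atrx-1 and 1184.5 to 1766.2 CPM in WT. NRT2.1 and WOX5 were at 0 in every library, and the floral markers AG and AP3 together reached at most 0.319 CPM. Fold changes in atrx-1 also moved with gene length over the whole table: nuclear genes had a median of -0.49 in the shortest of 10 length groups (median 643 nt) and 0.43 in the longest (3625 nt). The slope of centred log2 CPM on log2 length was 0.144, 0.158 and 0.159 in atrx-1 libraries 1, 2 and 3. In WT libraries 1, 2 and 3 it was -0.231, -0.0628 and -0.167. The groups did not overlap, so removing the length trend of each library may also remove a difference between genotypes. The 2 cannot be told apart here.

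Several sequences bear on how far the 10 genes can be read. PGLP1 (AT5G36700, chr5:14421576-14424511 in TAIR10, the coordinates of the deposited table) encodes the chloroplast phosphoglycolate phosphatase that opens the pathway, and a second gene, PGLP1B (AT5G36790, chr5:14480874-14483814), has the same coding sequence: 1089 of 1089 bases were identical in the RefSeq annotation of TAIR10.1. The start of both coding sequences, positions 1 to 60, is shown in lower case because no base differs.
PGLP1: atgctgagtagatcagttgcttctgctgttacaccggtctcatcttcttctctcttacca
PGLP1B: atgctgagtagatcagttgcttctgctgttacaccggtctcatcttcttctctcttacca
GOX1 and GOX2, the neighbouring genes of peroxisomal glycolate oxidase, are similar but can be told apart. Their coding sequences of 1104 and 1122 bases were identical at 90.9% of 1122 aligned columns, and the longest identical run was 68 bases. The stretch of 60 coding bases with the most differences, 13, lies at positions 1034 to 1093 of GOX1 and 1052 to 1111 of GOX2, with the differing bases in capitals.
GOX1: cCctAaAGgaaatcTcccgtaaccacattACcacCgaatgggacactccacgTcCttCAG
GOX2: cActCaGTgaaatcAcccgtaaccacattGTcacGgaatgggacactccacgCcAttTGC

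Because a read that fits several genes may be dropped or split, each transcript was divided into all its 50-nt windows and each window was searched for in the genome and in the transcripts of other genes. For PGLP1, 1754 of 1754 windows occurred elsewhere, every one of them in PGLP1B, and at 100 nt the share was still 100%. For GOX1 and GOX2 the shares were 1.19% and 1.2%, for AGT1 0.563% and for GLDP1 0.141%, and no window of GLDT, SHM1, HPR1, GGT1 or GLYK was found elsewhere. At 100 nt no window of these 9 genes was shared. The count of PGLP1 therefore carries a limit that the counts of the other 9 do not.

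The counts of the 10 genes fell into 3 levels. That of PGLP1 cannot be read as a transcript level, because every window of its transcript also occurs in PGLP1B. Per kb of gene length, 8 enzymes averaged between 195 and 572 CPM per kb in atrx-1 and between 146 and 523 CPM per kb in WT, GLYK was at 39.0 ± 6.12 and 24.6 ± 5.86 CPM per kb, and PGLP1 was at 1.07 ± 0.353 and 0.625 ± 0.18 CPM per kb (SD, n = 3 each). Among all features AGT1 ranked at position 122 in atrx-1 and 135 in WT, and the lowest of the 8 at position 242 in atrx-1 (GOX2) and 389 in WT (GLDP1). In both groups the order began with AGT1, GGT1, GOX1, SHM1 and HPR1. In atrx-1 the neighbours GGT1 and GOX1, GOX1 and SHM1, SHM1 and HPR1, and HPR1 and GLDT did not overlap between libraries, whereas AGT1 with GGT1, and GLDT, GLDP1 and GOX2 among themselves, lay within their spread. In WT every pair of neighbours from AGT1 down to GLDP1 overlapped. GLDP1 lay 5.95-fold above GLYK in WT, and GOX2 lay 5.01-fold above it in atrx-1, with no overlap in either group.

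**Figure D1:**
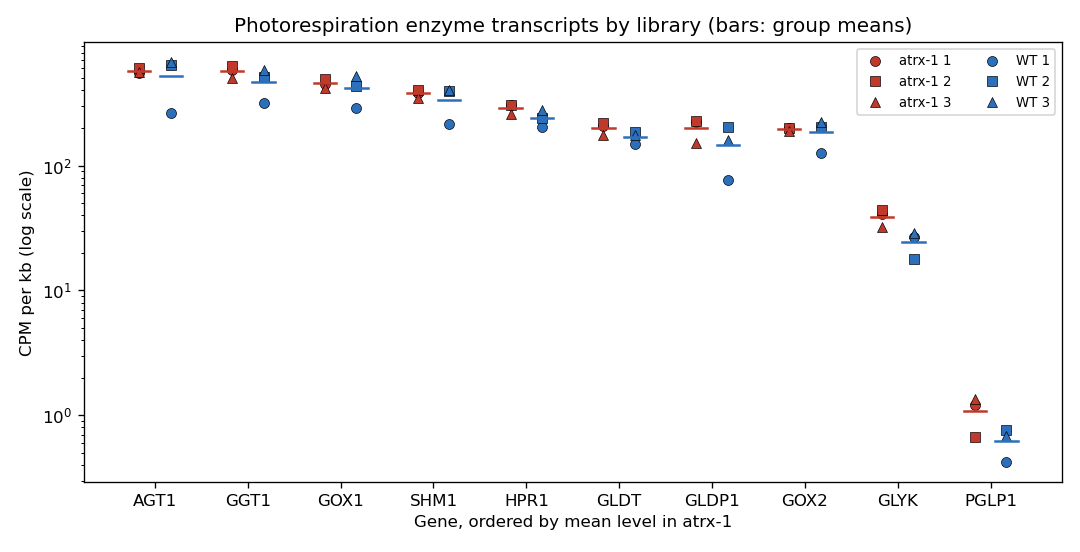
Level of each of the 10 transcripts in CPM per kb of gene length (log scale), with atrx-1 libraries in red left of WT libraries in blue, marker shapes for libraries 1, 2 and 3 and bars for group means. GLYK and PGLP1 stand below the other 8, though the PGLP1 count cannot be read as a transcript level. WT library 1 is the lowest point of the WT group for 8 of the 9 more abundant genes.

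None of the genes passed the test between genotypes. PGLP1 was removed by the filter on low counts, and of the 9 tested genes 0 were called by edgeR's quasi-likelihood test at a Benjamini-Hochberg adjusted p under 0.05, against 0.116% of all 13819 tested features (16 of them). By an unadjusted p under 0.05, 1 of the 9 (GLYK) was higher, where 8.64% of all tested features were, and 0 were lower, where 10.9% were. All 9 log2 fold changes were above 0, between 0.09 and 0.63 with a median of 0.25, while 51.2% of all tested features were above 0 and their median was 0.01. The atrx-1 libraries all lay above the WT libraries for 1 of the 9 genes, again GLYK, against 12.2% of the tested features. In DESeq2 0 of the 9 passed at an adjusted p under 0.05, against 2.83% of the features with an adjusted p. With the length trend of each library removed, all 9 were still above 0, between 0.01 and 0.55 with a median of 0.08, where 46.1% of all tested features were, and GLYK remained the 1 gene higher at an unadjusted p under 0.05, where 3.78% were. The shared direction rested on WT library 1: without it 5 of the 9 genes were higher and 4 lower, and without it and with the length trend removed 3 were higher and 6 lower, as given with that library.

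In the chloroplast opening step, PGLP1 had 25, 4 and 6 reads in atrx-1 libraries 1, 2 and 3, against 2, 1 and 3 reads in WT libraries 1, 2 and 3. Its identical copy PGLP1B had 15, 4 and 2 reads in atrx-1, against 1, 1 and 2 reads in WT. All these counts are low, and the groups overlapped in CPM. With the filter left out, edgeR gave PGLP1 a value of 0.94 ± 0.69 (SE) on the log2 scale, with an adjusted p of 0.548. PGLP2, a related cytosolic phosphatase with its own sequence, was at 6.05 ± 1.49 CPM in atrx-1 and 5.76 ± 1.05 CPM in WT (SD, n = 3 each). The authors' handling of reads that match several genes was not given in the sources used here, so the level of phosphoglycolate phosphatase transcripts cannot be read from this table.

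Glycolate oxidase, which converts glycolate to glyoxylate and hydrogen peroxide in the peroxisome, is encoded mainly by GOX1 (AT3G14420, chr3:4821523-4824178) and GOX2 (AT3G14415, chr3:4818298-4821006). GOX1 stood at 676, 736 and 623 CPM in atrx-1 libraries 1, 2 and 3, against 430, 641 and 782 CPM in WT libraries 1, 2 and 3. GOX2 stood at 325, 325 and 307 CPM in atrx-1, against 204, 330 and 368 CPM in WT. For both genes the atrx-1 libraries fell inside the WT range, between WT library 1 at the bottom and WT library 3 at the top. The log2 fold change was 0.14 ± 0.24 (SE; 95% interval -0.39 to 0.66) for GOX1 and 0.09 ± 0.23 (SE; -0.42 to 0.6) for GOX2. The log2 ratio of GOX1 to GOX2 was 1.06, 1.18 and 1.02 in atrx-1 and 1.07, 0.958 and 1.085 in WT (difference 0.05; exact two-sided permutation test over libraries, n = 3 each, p = 0.6). Summed to a single feature they gave 0.12 ± 0.24 (SE). In the RefSeq annotation GOX1 overlaps AT3G14430 on the other strand, and GLDP1 likewise overlaps AT4G33000, and since no source used here says whether counting used strand, reads of these partners could not be told apart. Catalase CAT2, which removes the hydrogen peroxide of this step, was at 891 ± 148 CPM in atrx-1 and 773 ± 372 CPM in WT (SD, n = 3 each).

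The peroxisomal aminotransferases convert glyoxylate to glycine. GGT1 (AT1G23310, chr1:8268404-8271933), which uses glutamate as the amino donor, stood at 1213, 1298 and 1041 CPM in atrx-1, against 662, 1056 and 1205 CPM in WT. AGT1 (AT2G13360, chr2:5539240-5541358), which uses serine and so also releases hydroxypyruvate, stood at 849, 926 and 861 CPM in atrx-1, against 404, 978 and 1030 CPM in WT. AGT1 was even across the atrx-1 libraries and below WT libraries 2 and 3 in all of them, with WT library 1 far beneath. The log2 fold changes were 0.28 ± 0.25 (SE; 95% interval -0.26 to 0.82) for GGT1 and 0.13 ± 0.30 (SE; -0.53 to 0.79) for AGT1. GGT2, the paralog of GGT1, was at 50.3 ± 11.4 CPM in atrx-1 and 49.2 ± 24.7 CPM in WT (SD, n = 3 each), and the log2 ratio of GGT1 to GGT2 averaged 4.56 ± 0.183 and 4.40 ± 0.40 (SD; exact two-sided permutation test, n = 3 each, p = 0.5).

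In the mitochondrion the glycine decarboxylase complex splits glycine with its P, H, T and L proteins, and serine hydroxymethyltransferase joins the resulting one-carbon unit to another glycine. GLDP1 (AT4G33010, chr4:15926670-15931332), a gene of the P protein that carries out the decarboxylation, stood at 775, 793 and 528 CPM in atrx-1, against 268, 704 and 554 CPM in WT. GLDT (AT1G11860, chr1:4001113-4003442), the gene of the T protein or aminomethyltransferase, stood at 332, 354 and 280 CPM in atrx-1, against 238, 295 and 283 CPM in WT. SHM1 (AT4G37930, chr4:17831731-17834927), the main leaf hydroxymethyltransferase, stood at 725, 765 and 661 CPM in atrx-1, against 409, 753 and 762 CPM in WT. In each of the 3 genes atrx-1 library 3 was the lowest of its group and WT library 1 the lowest of all, and the groups overlapped. The log2 fold changes were 0.46 ± 0.31 (SE; 95% interval -0.22 to 1.15) for GLDP1, 0.25 ± 0.20 (SE; -0.19 to 0.68) for GLDT and 0.16 ± 0.25 (SE; -0.38 to 0.71) for SHM1. GLDP1 is the longest of the 10 genes at 3476 nt, and 656 nuclear features within 10% of its length had a median log2 fold change of 0.40.

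The subunits of the decarboxylase did not all lie on the same side. GLDP2, the second P protein gene, followed GLDP1 closely: it was at 269 ± 52.8 CPM in atrx-1 and 193 ± 89.7 CPM in WT (SD, n = 3 each), with a log2 ratio of GLDP1 to GLDP2 of 1.37 ± 0.0264 in atrx-1 and 1.42 ± 0.135 in WT. The genes of the H protein, the lipoyl-bearing shuttle between the other subunits, had lower values in atrx-1. GLDH1 stood at 134, 155 and 136 CPM in atrx-1, against 236, 228 and 225 CPM in WT. The groups did not overlap, and 11.4% of all tested features likewise lay below WT in every atrx-1 library. The log2 fold change of GLDH1 was -0.70 ± 0.19 (SE) with an edgeR adjusted p of 0.0839. GLDH3 stood at 127, 151 and 120 CPM in atrx-1, against 149, 214 and 217 CPM in WT, overlapping in WT library 1 (-0.54 ± 0.21, SE; edgeR adjusted p = 0.191), and the sparse GLDH2 was at 6.82 ± 0.509 CPM in atrx-1 and 11.0 ± 4.14 CPM in WT (SD, n = 3 each; -0.84 ± 0.27, SE; edgeR adjusted p = 0.12). The authors' deposited table called GLDH1 and GLDH3 as lower, with log2 values of -0.62 and -0.66 and adjusted p of 0.0251 and 0.00113, where 4% of its features with an adjusted p were lower, and DESeq2 called GLDH1 as lower (adjusted p = 0.0146; 2.25% of its features were). The L protein gene mtLPD1 was called higher in the authors' deposited table (log2 0.66, adjusted p = 0.0416; 3.06% of its features were higher) and was at 0.47 ± 0.23 (SE; edgeR adjusted p = 0.288) in edgeR. The other L protein gene, mtLPD2, was at 17.6 ± 1.75 CPM in atrx-1 and 19.0 ± 3.45 CPM in WT (SD, n = 3 each), and its log2 fold change was -0.13 ± 0.20 (SE; edgeR adjusted p = 0.771), or -0.28 with the length trend removed, against 0.02 in the authors' deposited table. Whether the deposited comparison held WT library 1 was not tested. Without that library edgeR gave -0.68 for GLDH1, -0.70 for GLDH3, 0.80 for mtLPD1 and 0.06 for mtLPD2. The H protein genes are short, at 791 to 840 nt. With the trend of each library on gene length removed, GLDH1 was at -0.41 ± 0.20 (SE; edgeR adjusted p = 0.476) and GLDH3 at -0.26 ± 0.24 (SE; edgeR adjusted p = 0.751), and GLDP1 was at 0.07 ± 0.31 (SE; edgeR adjusted p = 0.973). GLDH2 was then at -0.53 ± 0.25 (SE; edgeR adjusted p = 0.464) and mtLPD1 at 0.37 ± 0.23 (SE; edgeR adjusted p = 0.596).

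**Figure D2:**
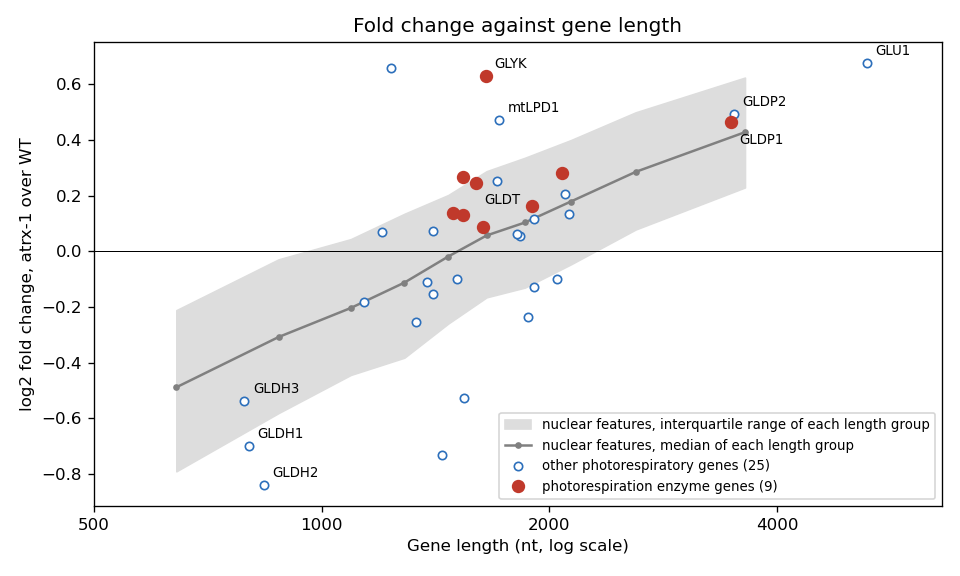
Log2 fold change of atrx-1 over WT against gene length (nt, log scale) for the 9 tested photorespiration enzyme genes (red) and 25 other tested photorespiratory genes (open blue), over the median (line) and interquartile range (band) of 10 length groups of nuclear features. GLDP1 lies near the line at 3476 nt, GLYK at 0.63 lies above the band, and GLDH1 and GLDH2 lie below it.

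The return to the Calvin cycle runs through hydroxypyruvate reductase and glycerate kinase. HPR1 (AT1G68010, chr1:25493196-25495988), the peroxisomal reductase that makes glycerate, stood at 471, 469 and 398 CPM in atrx-1, against 314, 370 and 429 CPM in WT. The groups overlapped through atrx-1 library 3 and WT library 3, and the log2 fold change was 0.26 ± 0.21 (SE; 95% interval -0.18 to 0.71). HPR2, a cytosolic reductase, was at 20.1 ± 1.40 CPM in atrx-1 and 23.4 ± 6.48 CPM in WT (SD, n = 3 each). The log2 ratio of HPR1 to HPR2 averaged 4.43 ± 0.201 in atrx-1 and 3.99 ± 0.26 in WT (SD; exact two-sided permutation test, n = 3 each, p = 0.2).

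GLYK (AT1G80380, chr1:30217116-30220004), the chloroplast glycerate kinase that closes the pathway, had the highest estimate of the 9 genes. It stood at 67.5, 72.3 and 52.9 CPM in atrx-1 libraries 1, 2 and 3, against 44.5, 29.5 and 47.6 CPM in WT libraries 1, 2 and 3, from 984, 301 and 166 reads and 148, 27 and 146 reads. Every atrx-1 library lay above every WT library, and WT library 2, the shallowest, was the lowest. The log2 fold change was 0.63 ± 0.22 (SE; 95% interval 0.16 to 1.1) with an unadjusted p of 0.0128 and an edgeR adjusted p of 0.141. The authors' deposited table called GLYK as higher, with a log2 value of 0.59 and an adjusted p of 0.0492, where 3.06% of its features with an adjusted p were higher. Whether the deposited comparison held WT library 1 was not tested, and edgeR without that library gave GLYK 0.67 ± 0.21 (SE). In DESeq2 the value was 0.63 ± 0.25 (SE) with an adjusted p of 0.151, and 0.579% of its features were called higher. With the length trend removed GLYK was at 0.55 ± 0.22 (SE; edgeR adjusted p = 0.396), and without WT library 2 at 0.46 ± 0.21 (SE; edgeR adjusted p = 0.252).

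**Figure D3:**
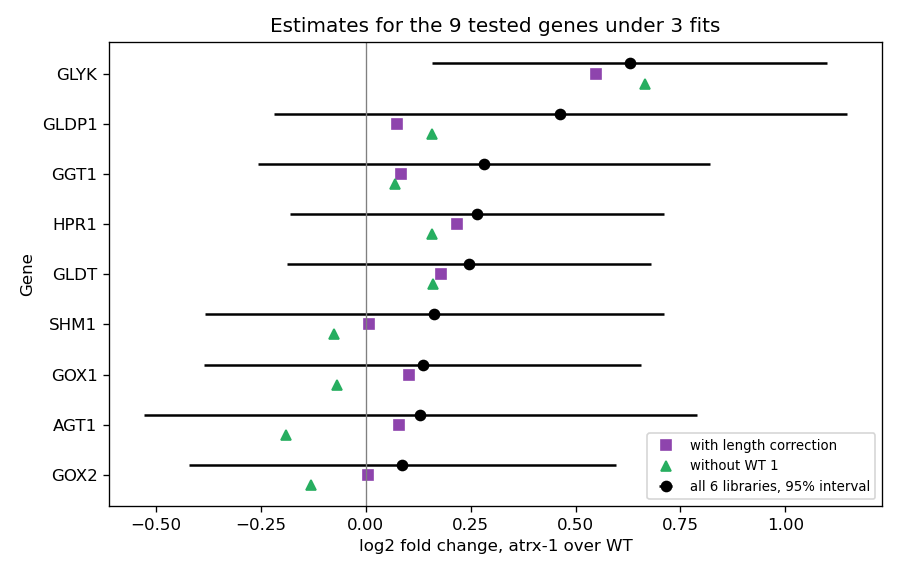
Log2 fold change of atrx-1 over WT for the 9 tested genes, with 95% intervals from the fit to all 6 libraries (black circles), and the estimates with length correction (purple squares) and without WT library 1 (green triangles). The interval of GLYK lies above 0 and those of the other 8 genes span 0, and SHM1, GOX1, GOX2 and AGT1 fall below 0 without WT library 1.

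Wild-type library 1 had low values for most of these genes. It was the lowest of the 6 libraries for 8 of the 9 tested genes, where it was the lowest for 24.4% of all tested features. Against the mean of WT libraries 2 and 3 on the log2 scale it was lower by 2.48-fold for AGT1, 2.33-fold for GLDP1 and 1.85-fold for SHM1, and by 1.21-fold for GLDT at the small end, while GLYK was not lower. The Calvin cycle genes had the same drop in that library: it was the lowest for 16 of 19, with a median log2 difference from the other WT libraries of -0.75, against -0.77 for the 9 photorespiration enzyme genes. In the 25 other photorespiratory genes it was the lowest for 11, with a median of -0.25, and over all tested nuclear features the median was 0.03. The reads of the 10 genes together took 1.41%, 1.5% and 1.22% of the nuclear counts in atrx-1 libraries 1, 2 and 3, against 0.654%, 1.27% and 1.23% in WT libraries 1, 2 and 3. The group means of 1.37% ± 0.142 and 1.05% ± 0.344 (SD, n = 3 each) did not differ beyond the spread (p = 0.3 by an exact permutation test, two-sided, in which 3 against 3 libraries can reach 0.1 at the lowest). The widest 95% Wilson interval of these shares, in WT library 2, ran from 1.23% to 1.31% and covers counting error only. As shares of all counts, organelle reads included, the 10 genes took 0.566%, 0.612% and 0.516% in atrx-1 libraries 1, 2 and 3, against 0.284%, 0.504% and 0.463% in WT libraries 1, 2 and 3. On that base the groups did not overlap, and the difference of 0.147 percentage points had the lowest p that the exact permutation test can give, 0.1. In bulk RNA, fewer green cells and less of these transcripts per cell cannot be told apart.

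Other measures moved with that library. Its green-tissue markers summed to 12619 CPM, the lowest of the WT group and of all 6 libraries (atrx-1 15792 to 17894 CPM, WT libraries 2 and 3 21215 and 16445 CPM). LHCB1.1, LHCB1.3, LHCB2.1, LHCB3 and CA1 were each lowest there. LHCB1.2 was not, at 2502 CPM against 2392 CPM in atrx-1 library 1 and 2445 CPM in WT library 3. Its root markers summed to 1855 CPM, the highest of all, but PYK10 alone gave 1766 CPM of that sum. Among the other root markers, PRX57, PRP3, COBL9 and MYB36 were also highest in WT library 1 within the WT group. CASP1, SHR, RHD6, EXPA7, EXPA18 and IRT1 were lowest in WT library 1 within that group. The seed storage markers SESA1, CRA1 and CRC together were between 14.4 and 38.0 CPM in atrx-1 and between 34.2 and 125 CPM in WT, with library 1 the highest. Small nuclear and nucleolar RNAs took 1.09% of its counts, against 0.11% to 0.245% in atrx-1 and 0.316% and 0.479% in the other WT libraries. Their part in the lower photorespiratory transcripts was not tested. Without WT library 1, of the 9 genes 5 were higher and 4 lower in atrx-1, with a median log2 fold change of 0.07. Of 13682 tested nuclear features 6953 were then higher. SHM1 was then at -0.08, GOX1 at -0.07, GOX2 at -0.13 and AGT1 at -0.19, and 0 of the 9 were among the 378 features called by edgeR (1.16% of features higher and 1.45% lower). In the authors' deposited table the log2 values of these 4 genes were also below 0, at -0.07 for SHM1, -0.07 for GOX1, -0.13 for GOX2 and -0.18 for AGT1. GLDP1, GLDT, HPR1 and GGT1 stood at 0.15, 0.15, 0.14 and 0.06 in that table. The fit without WT library 1 gave 0.16, 0.16, 0.16 and 0.07, and the fit to all 6 libraries 0.46, 0.25, 0.26 and 0.28. GLYK, at 0.59 in that table, lay below both the fit to all 6 libraries (0.63) and the fit without WT library 1 (0.67). Its value therefore cannot tell these 2 fits apart. Which libraries entered that table's comparison was not tested. With length correction as well, an alternative chosen after seeing the data, GLDT, HPR1 and GLYK were above 0 and the other 6 below it, with a median of -0.14 where 44.1% of all features were above 0, and 0 of the 9 were called. Of the other photorespiratory genes GLDH1 and GLDH3 were called as lower by edgeR without WT library 1, at -0.68 ± 0.16 (SE; edgeR adjusted p = 0.0444) and -0.70 ± 0.17 (SE; edgeR adjusted p = 0.0445), and with length correction as well they were at -0.46 ± 0.17 and -0.48 ± 0.17 (SE) and were not (edgeR adjusted p = 0.226 and 0.222).

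**Figure D4:**
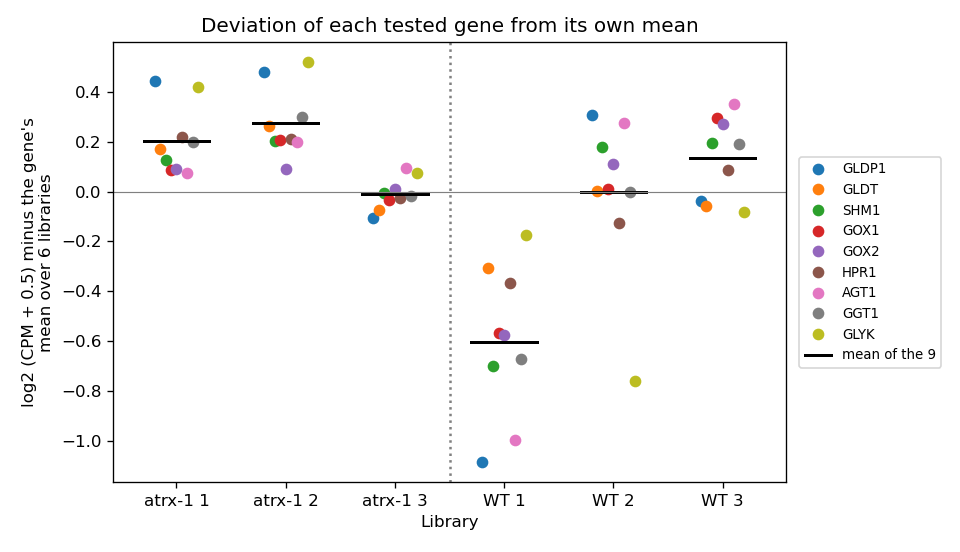
Deviation of log2(CPM + 0.5) from each gene's own mean over the 6 libraries, for the 9 tested genes (points) and their mean (bars), with atrx-1 libraries left of WT libraries. The mean of the 9 is -0.60 in WT library 1 and between -0.01 and 0.28 in the other 5 libraries, and GLYK is lowest in WT library 2 at -0.76.

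The 9 genes differed in how near they lay to this mean profile. The root mean square difference between a gene's centred log2 values and the mean of the 9 was 0.04 for GGT1, 0.09 for GOX1 and 0.10 for SHM1, and it reached 0.23 for AGT1, 0.28 for GLDP1 and 0.39 for GLYK, where the median over all 13819 tested features was 0.43. Each of the 9 is itself part of that mean, which makes its difference smaller by construction than that of other features. Outside the fixed lists the features with the smallest difference were AT4G33680 (DAP, LL-diaminopimelate aminotransferase of the chloroplast, 0.03), AT2G17033 (a pentatricopeptide repeat protein gene, 0.04), AT3G10670 (ABCI6, 0.04), AT4G24280 (the chloroplast chaperone HSP70-6, 0.05) and AT1G75210 (a HAD-superfamily hydrolase, 0.05). These likenesses describe 6 libraries in which WT library 1 has the lowest value of each of the 5.

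Of the wider pathway, 28 further genes of subunits, paralogs, transporters and nitrogen reassimilation were in the table and 25 were tested. Of these 12 were higher and 13 lower in atrx-1 (median log2 fold change -0.10), where 51.2% of all tested features were higher. By edgeR over all features 0 of the 25 were called. By an unadjusted p under 0.05, 1 was higher and 4 were lower, where 8.64% and 10.9% of all tested features were. With the length trend removed 8 of the 25 were higher and 17 lower, where 46.1% of all tested features were higher. By the same threshold 0 were then higher and 1 (HAOX1) was lower, where 3.78% and 7.15% of all tested features were. The higher gene was GLU1, the ferredoxin-dependent glutamate synthase that recovers photorespiratory ammonium, at 594, 580 and 466 CPM in atrx-1, against 212, 443 and 378 CPM in WT. All its atrx-1 libraries lay above the WT libraries (log2 fold change 0.67 ± 0.27, SE; edgeR adjusted p = 0.188). At 5251.5 nt GLU1 is long, and with the length trend removed it was at 0.18 ± 0.26 (SE). GLN2, the plastid glutamine synthetase that works with it, was at 586 ± 94.8 CPM in atrx-1 and 492 ± 70.4 CPM in WT (SD, n = 3 each). The 4 lower genes were GLDH1, GLDH2, GLDH3 and HAOX1, a hydroxy-acid oxidase gene related to glycolate oxidase that was at 3.65 ± 0.433 CPM in atrx-1 and 5.62 ± 1.14 CPM in WT (SD, n = 3 each). Without WT library 1, 8 of the 25 genes were higher and 17 lower (median -0.15), where 6953 of 13682 tested nuclear features were higher.

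Compared with the Calvin cycle, the pathway that receives its glycerate, the photorespiration enzyme genes had a higher ratio in every atrx-1 library, in a design whose exact test cannot reach 0.05 for a difference of any size. The log2 ratio of the summed CPM of the 10 genes to that of 19 Calvin cycle genes was -1.62, -1.63 and -1.67 in atrx-1 libraries 1, 2 and 3, against -1.87, -1.81 and -1.71 in WT libraries 1, 2 and 3. The groups did not overlap, and the difference of 0.16 had the smallest p the design allows (exact two-sided permutation test, n = 3 each, p = 0.1; Benjamini-Hochberg adjusted p = 0.267 over 8 ratios). Of the 19 Calvin cycle genes 12 were higher and 7 lower (median log2 fold change 0.05), where 51.2% of all tested features were higher. Without WT library 1, 5 were higher and 14 lower (median -0.17), where 6953 of 13682 tested nuclear features were higher. The ratio of summed CPM was not corrected for length, and the part of gene length in its difference was not tested. The Calvin cycle sum includes the RBCS genes, of 808 to 1021.5 nt. Length groups with medians of 877.5 and 1093 nt had median log2 fold changes of -0.31 and -0.20. Per gene, with the length trend removed, the medians were 0.08 for the 9 photorespiration enzyme genes and 0.03 for the Calvin cycle genes. With the trend left in they were 0.25 and 0.05. The log2 ratio of SHM1 to its paralog SHM2 was 5.24, 5.31 and 5.30 in atrx-1, against 4.51, 5.07 and 5.23 in WT (difference 0.35; exact permutation test, n = 3 each, p = 0.1, adjusted 0.267), and without WT library 1 the difference was 0.14. SHM2 itself was at 17.9 ± 1.41 CPM in atrx-1 and 19.7 ± 2.20 CPM in WT (SD, n = 3 each).

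The sequences upstream of the genes were read to show which motifs the 10 genes hold there. In the 300 bases before each RefSeq gene start (TAIR10.1), the G-box CACGTG, searched on both strands, was found in 2 of the 10 genes, GLDP1 and GGT1, and in 7.1% of 27443 protein-coding genes. The I-box GATAAG, searched on both strands, was found in 0 of the 10 and in 14.5% of all. The letters of the TATA box, TATAAA, likewise on both strands, were found in 2 of the 10 (SHM1 and GOX2) and in 52.9% of all. The match lies 118 bases before the gene start in SHM1 and 143 bases before it in GOX2, there on the reverse strand. The windows of the 2 genes with a G-box, whose letters are in capitals, are given with that of GLYK, the gene whose profile differed most, which holds none of the 3 motifs. They lie at chr4:15931423-15931722 (minus strand), chr1:8272022-8272321 (minus strand) and chr1:30216816-30217115 (plus strand) in TAIR10.1, and the first G-box base is 33 bases before the gene start in GLDP1 and 82 bases before it in GGT1.
GLDP1: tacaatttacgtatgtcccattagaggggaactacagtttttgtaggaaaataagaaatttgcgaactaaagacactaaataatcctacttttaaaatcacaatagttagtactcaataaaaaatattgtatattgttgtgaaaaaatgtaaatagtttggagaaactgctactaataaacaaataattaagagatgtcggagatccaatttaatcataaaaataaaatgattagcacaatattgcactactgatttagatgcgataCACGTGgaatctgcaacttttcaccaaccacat
GGT1: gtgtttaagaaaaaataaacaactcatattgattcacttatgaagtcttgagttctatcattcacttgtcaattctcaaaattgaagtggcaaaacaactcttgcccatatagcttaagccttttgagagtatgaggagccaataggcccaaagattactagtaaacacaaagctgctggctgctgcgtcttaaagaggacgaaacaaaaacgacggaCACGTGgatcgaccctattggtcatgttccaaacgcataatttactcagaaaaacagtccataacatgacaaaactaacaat
GLYK: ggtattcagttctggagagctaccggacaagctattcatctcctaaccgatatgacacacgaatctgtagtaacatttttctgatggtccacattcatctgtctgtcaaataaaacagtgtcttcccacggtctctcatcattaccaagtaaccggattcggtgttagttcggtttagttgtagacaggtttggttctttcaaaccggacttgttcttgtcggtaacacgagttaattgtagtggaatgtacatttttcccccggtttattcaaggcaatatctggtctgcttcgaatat
A match of these letters is a description of the sequence and shows no binding.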

How the data were processed

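RNA-seq counts of 6 libraries (3 atrx-1, 3 WT) were grouped by genotype and numbered as in the sample titles. The authors deposited raw read counts per gene, a normalized signal per library (the count divided by 1 size factor) and that signal per kb of gene length, and their own log2 fold change with its p-value, raw and adjusted, per the file headers. The submitters' processing notes list HTSeq 0.6.1, DESeq and DESeq2 1.6.3, the aligners Bowtie2 2.1.0 and TopHat2 2.0.14, and CASAVA 1.8.2, with the build TAIR10. Counting options for strand and for multiple matches were not given in the sources used here. Gene length is the ratio of the deposited signals.

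Counts were tested with edgeR 4.0.16 in R 4.3.3 (TMM, filterByExpr with a minimum count of 10 and total of 15, glmQLFit, glmQLFTest, Benjamini-Hochberg over 13819 features, threshold 0.05); standard errors come from the F statistic. Single values per library were compared by an exact permutation test. Length correction removed each library's spline trend (4 degrees of freedom) on log2 length over nuclear features. The fit was tested on simulated data with known changes, where it recovered 100 of 100 changes of 4-fold and 62 of 100 of 2-fold. Changes as small as those estimated for the tested members were not simulated. Alternatives were DESeq2 1.42.0, RLE scaling, nuclear genes only, shares of all counts, other filters, the replicate block, length correction, leaving out each library and summing near-identical genes. Sequences were read from the RefSeq genome and annotation TAIR10.1 with that annotation's coordinates; 59.2% of 22113 nuclear coding genes of the table share a start or end with it, and no coordinates were carried between them.

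The members and lists were chosen with earlier results of these data known. The rule named all 10 members, the 4 other photorespiratory genes with the smallest p, the paralogs compared and the 5 features of the most like profile; HAOX1, mtLPD1, mtLPD2, CAT2 and GLN2 were named after their values were seen. Counts per library ranged from 936243 to 14001726.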

Additional observations from a re-analysis of the deposited data

How the results depend on the processing

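The count of members called was 0 under every setting run, and the 9 tested members kept a positive log2 fold change in all 72 values from the 8 settings that kept all libraries and features apart. Their median log2 fold change ranged from 0.07 without WT library 1 to 0.36 without WT library 3, and was 0.08 with length correction. With a library left out, SHM1 ranged from -0.075 to 0.31, GOX1 from -0.069 to 0.35, GOX2 from -0.13 to 0.27 and AGT1 from -0.19 to 0.36, each lowest and below 0 without WT library 1. With length correction as well, an alternative chosen after seeing the data, GLDP1 (-0.24), SHM1 (-0.24), GOX1 (-0.12), GOX2 (-0.23), AGT1 (-0.25) and GGT1 (-0.14) were below 0, the median was -0.14 and 5 features were called. GLYK ranged from 0.46 to 0.75, with an adjusted p from 0.101 to 0.589. The difference in the summed share of nuclear counts, 0.324 percentage points, ranged from 0.125 without WT library 1 to 0.433 without WT library 2.

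The number of features called over the whole table was 16 in edgeR, 210 in DESeq2, 38 with RLE size factors, 592 with no low-count filter, 34 with the replicate block, 0 with length correction (1511 at an unadjusted p under 0.05) and 1 with both; it ranged from 0 to 378 when a library was left out. The cause was not tested. Same-numbered libraries had correlations of 0.0645, 0.0587 and -0.0804, within the range of the differently numbered pairs (-0.134 to 0.0892). This check therefore cannot show whether same-numbered libraries were processed together, and the numbers were not taken as pairs. The replicate block left the count of members called at 0, with a median of 0.24. Of the log2 ratios (atrx-1 minus WT), that of GOX1 to GOX2 ranged from -0.00135 without atrx-1 library 2 to 0.0793, GLDP1 to GLDP2 reached 0.0142 without WT library 1, GGT1 to GGT2 ranged from -0.00223 without WT library 3 to 0.385, and PGLP1 to PGLP1B ranged from -0.0058 without atrx-1 library 3 to 0.537. The low count of PGLP1 allows no statement on that gene; PGLP1 and PGLP1B summed were also removed by the filter.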
